A study of Arabidopsis thaliana with 3 samples.

Results

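Arabinogalactan proteins (AGPs) and fasciclin-like arabinogalactan proteins (FLAs) of Arabidopsis thaliana are the subject of the measurements given here. The members were chosen by name. They are genes of the root RNA-seq table listed as AGP or FLA followed by a number, with or without the prefix AT. The values cover 48 such genes of the 33446 listed, 30 of them named AGP and 18 named FLA. Symbols of the TAIR10.1 annotation gave the locus of 45 members, and synonyms that of the other 3 (AGP20, AGP25 and AGP30, listed with the prefix AT).

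RNA was measured in roots of 14-day-old plants of the Columbia (Col-0) accession grown on vertical agar plates. All plants carried a transgene for INTACT, a method in which tagged nuclei are captured on beads, on a single plasmid under the constitutive 35S promoter, and no plants without the transgene were included. The 3 root libraries were of 1 condition and were made from RNA isolated from roots rather than from captured nuclei. They are represented by a single column of RPKM, reads scaled to gene length and to library size. No value therefore has a replicate spread, no comparison between conditions could be made, and every level is given as a description, with the counting error where depth could be recovered. From the spacing of the lowest values the depth was about 118000000 reads, which may be the sum of the libraries or a single library. Of 8 root marker genes 8 were above 1 RPKM (11.4 to 4958 RPKM), beside 68.4% of protein-coding genes. Of the leaf markers 3 of 5 were above it (0.0746 to 17.3 RPKM), and of the pollen markers 1 of 9 (ANX1 at 2.33 RPKM, with ANX2 listed at 0). The ranges of root and leaf markers overlapped, with the leaf marker LHCB1.3 at 17.3 RPKM above the root markers SHR (14.9) and SCR (11.4).

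AGPs are cell surface proteoglycans. Their protein backbones are rich in proline, alanine, serine and threonine, many of the prolines are hydroxylated in the secretory pathway, and large branched chains of galactose and arabinose are attached to the hydroxyproline. Most are tethered to the outer face of the plasma membrane by a glycosylphosphatidylinositol (GPI) anchor, and in roots they are known from work on root hairs, cell expansion and the response to salt.

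The 48 genes were divided into 5 classes without use of any measured value. The FLAs were taken by product name and the lysine-rich AGPs from a fixed list of symbols. The other classes were set from the annotated proteins. The 13 classical AGPs encode 116 to 191 amino acids, of which 50% to 72.6% are proline, alanine, serine or threonine. The 3 lysine-rich AGPs (AGP17, AGP18 and AGP19) have the same kind of backbone with an inserted lysine-rich stretch. The 12 AG peptides encode only 58 to 74 amino acids before processing, most of which are signal peptide and anchor signal. The 2 chimeric AGPs (AGP30 and AGP31) join a short AGP region to a cysteine-rich domain, and the 18 FLAs of 247 to 489 amino acids carry fasciclin domains, which are known from animal cell adhesion proteins.

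Sequences of the genes that the levels turn on are shown first, since the feature that makes them AGPs can be read in the codons. Capitals mark the codons of the residue pairs Ala-Pro, Pro-Ala, Ser-Pro and Thr-Pro, the pairs typical of AGP glycosylation regions. All sequences are given 5′ to 3′ on the coding strand, from the RefSeq TAIR10.1 genome. The whole coding sequences of the most abundant AG peptide, AGP24 (chr5:16301153-16301362, plus strand), and of 2 pairs of close paralogs among the 10 most abundant genes come first. These pairs are AGP12 (chr3:4409087-4409269, plus strand) with AGP21 (chr1:20648634-20648810, minus strand), and AGP14 (chr5:22893243-22893425, plus strand) with AGP13 (chr4:13317235-13317414, minus strand). Each of the 5 lies within 1 exon.
AGP24: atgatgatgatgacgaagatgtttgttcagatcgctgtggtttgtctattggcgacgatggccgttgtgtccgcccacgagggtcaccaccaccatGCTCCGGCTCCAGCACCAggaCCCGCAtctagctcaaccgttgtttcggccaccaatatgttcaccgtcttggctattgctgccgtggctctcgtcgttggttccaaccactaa
AGP12: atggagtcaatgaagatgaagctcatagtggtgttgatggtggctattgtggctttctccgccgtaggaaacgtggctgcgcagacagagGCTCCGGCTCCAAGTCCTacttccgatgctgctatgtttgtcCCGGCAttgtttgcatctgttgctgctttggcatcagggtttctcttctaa
AGP21: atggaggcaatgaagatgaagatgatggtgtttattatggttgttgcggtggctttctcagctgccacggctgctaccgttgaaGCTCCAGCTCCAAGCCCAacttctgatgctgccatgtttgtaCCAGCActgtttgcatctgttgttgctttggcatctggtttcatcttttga
AGP14: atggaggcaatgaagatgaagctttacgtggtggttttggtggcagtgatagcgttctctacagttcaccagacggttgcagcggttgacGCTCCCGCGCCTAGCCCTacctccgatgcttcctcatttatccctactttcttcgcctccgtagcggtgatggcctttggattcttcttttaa
AGP13: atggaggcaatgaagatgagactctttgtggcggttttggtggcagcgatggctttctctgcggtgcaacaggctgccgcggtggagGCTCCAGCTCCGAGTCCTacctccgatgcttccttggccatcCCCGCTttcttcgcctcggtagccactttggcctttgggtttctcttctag

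The capitals in these 5 sequences sit in a single short block near the middle, with an isolated Pro-Ala further on in 3 of the 4 paralogs. AGP12, AGP21, AGP14 and AGP13 share a block that reads Ala-Pro, Ala-Pro, Ser-Pro, and differ within it only in synonymous codon positions. AGP24 has a block with more Ala-Pro pairs, a Pro-Ala and no Ser-Pro. The coding sequences of AGP12 and AGP21 had 136 identical bases, 74.3% of the 183 bases of the longer sequence. Those of AGP13 and AGP14 had 141, or 77.0% of the 183 bases of the longer.

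For the longer proteins the 90 coding bases with the most such pairs are shown, for the most abundant member of each other class and for AGP3, the paralog of AGP2. They lie at chr2:9538640-9538729 (AGP2), chr4:18581352-18581441 (AGP3), chr4:17606342-17606431 (AGP18, lysine-rich), chr1:9890718-9890807 (AGP31, chimeric) and chr1:983264-983353 (FLA9), all on the minus strand and in coding exons.
AGP2: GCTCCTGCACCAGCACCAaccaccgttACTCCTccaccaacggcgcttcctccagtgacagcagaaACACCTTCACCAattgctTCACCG
AGP3: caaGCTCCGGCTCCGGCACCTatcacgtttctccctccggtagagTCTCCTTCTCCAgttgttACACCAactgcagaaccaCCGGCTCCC
AGP18: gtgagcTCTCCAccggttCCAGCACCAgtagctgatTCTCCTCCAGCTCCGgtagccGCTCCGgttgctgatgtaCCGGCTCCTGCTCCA
AGP31: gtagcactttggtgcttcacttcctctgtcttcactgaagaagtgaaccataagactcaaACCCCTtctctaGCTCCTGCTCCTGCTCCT
FLA9: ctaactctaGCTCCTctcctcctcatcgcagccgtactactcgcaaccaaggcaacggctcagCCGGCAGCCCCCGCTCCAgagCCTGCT

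Within 90 bases AGP18 held 11 pairs, AGP3 held 10 and AGP2 held 9, while AGP31 and FLA9 held 6 each. Over the whole protein the classical AGPs had 8.62 to 23.7 such pairs per 100 residues, the lysine-rich AGPs 15.5 to 23.8, the AG peptides 6.45 to 8.70 and the FLAs 1.65 to 8.57.

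As a set, the 48 members, called the family below, were abundant in roots. The 10 related genes listed under other names are not part of these values. Of the 48 members 39 (81.2%) were above 1 RPKM, the threshold the study used for an expressed gene, against 56.0% of all listed genes and 68.4% of protein-coding genes. The median member had 37.2 RPKM (quartiles 6.76 and 199), beside a median of 2.21 RPKM over all listed genes and 4.85 RPKM over protein-coding genes. In total, 24 members (50%) were in the top 10% of the table, at 36.0 RPKM or more, beside 12.3% of protein-coding genes. The top 1%, at 271 RPKM or more, held 5 members (10.4%), beside 1.22% of protein-coding genes. Summed over the members, the RPKM came to 5095, which was 0.837% of the sum over the whole table.

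Abundance was unevenly spread within the family. The 5 most abundant genes held 43.6% of the summed RPKM and the 10 most abundant 67.4%. These 10 were 6 AG peptides, 3 classical AGPs and 1 FLA. In all, 16 members lay above 100 RPKM, 16 between 10 and 100, 7 between 1 and 10, another 7 above 0 but under 1, and 2 were listed at 0. For members above 1 RPKM the counting error was at most 7.60% of the value, and for the 10 most abundant at most 0.878%.

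**Figure D1:**
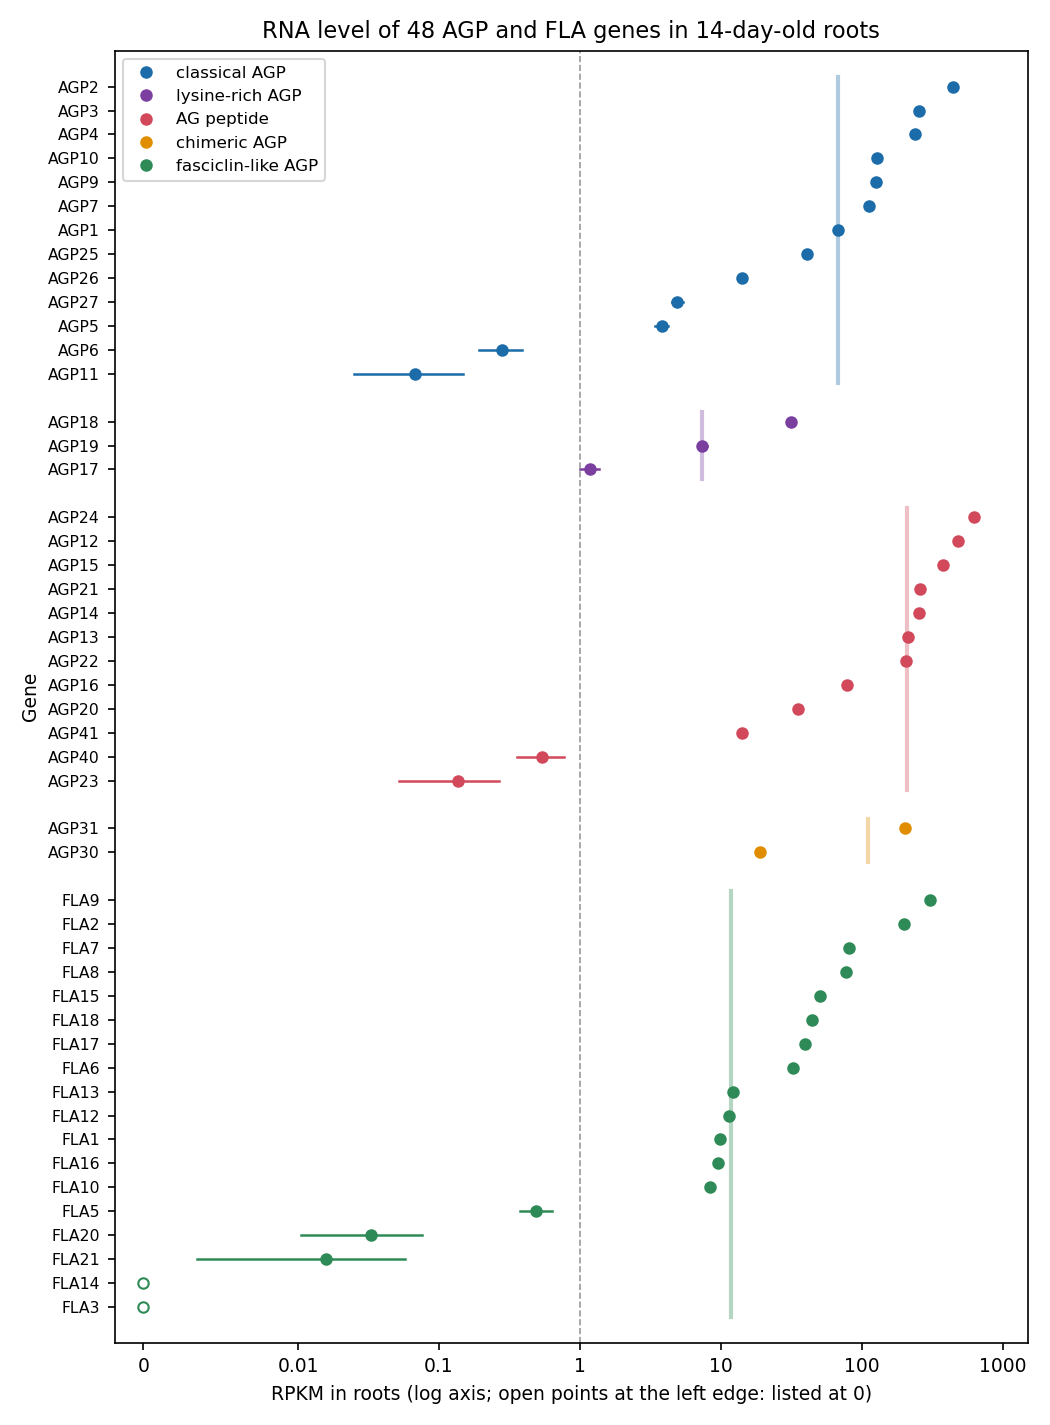
RPKM of each of the 48 genes in roots on a log axis, grouped by class, with 95% exact Poisson intervals for counting error (where not visible, smaller than the point), open points for genes listed at 0, a vertical bar at each class median and a dashed line at 1 RPKM. The AG peptides have the highest class median of the classes shown, 209 RPKM, and 9 genes in all lie left of the dashed line.

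**Figure D2:**
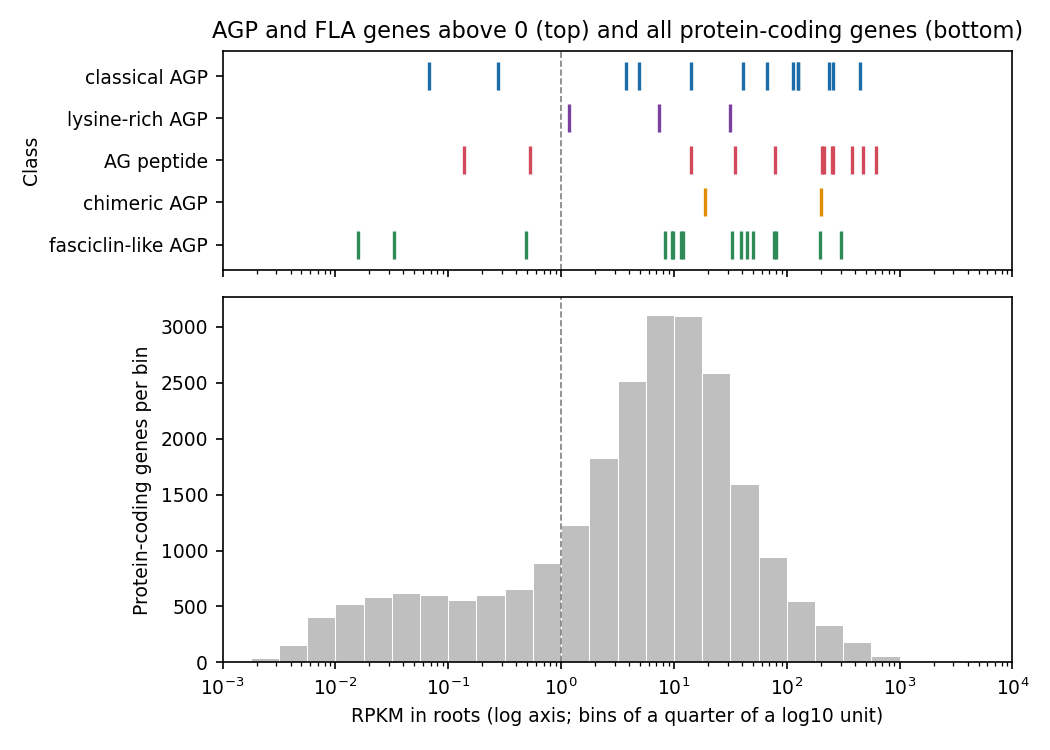
RPKM in roots on a log axis, with a tick for each member by class (top) and the number of protein-coding genes per bin (bottom), genes listed at 0 left out of both and the dashed line at 1 RPKM. The members' median of 37.2 RPKM lies to the right of the protein-coding median of 4.85 RPKM, both medians taken with the genes at 0.

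AG peptides were the most abundant class. Their median was 209 RPKM (range 0.137 to 621), and they held 49.6% of the family's summed RPKM. Of the 12 genes 10 (83.3%) were above 1 RPKM, beside 68.4% of protein-coding genes. AGP24 had the highest level of all 48 genes at 621 RPKM, rank 65 of the 33446 listed genes and about 49643 reads. AGP12 followed at 476 RPKM and AGP15 at 377 RPKM. AGP21, which in the root epidermis is known to affect the spacing of root hairs, had 258 RPKM.

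The next AG peptides lay close together. AGP14, whose loss is known to lengthen root hairs, had 252 RPKM, AGP13 had 213 and AGP22 had 204. Lower in the class were AGP16 at 78.2 RPKM, AGP20 at 35.0 and AGP41 at 14.1. Only AGP40 and AGP23 were under 1 RPKM, at 0.533 (29 reads, 95% exact Poisson interval 0.359 to 0.769) and 0.137 RPKM (7 reads, 0.0518 to 0.266). Both are known from pollen, and the AG peptides thus included the highest level of the family and levels near the limit of detection.

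The AG peptide genes are short, with 427 to 1101 bp of exon, and 18.0% to 41.5% of these bases were coding. The median over the 6116 protein-coding genes of this exon length was 1.03 RPKM, 50.1% of them were above 1 RPKM and 15.2% were in the top 10%, beside 8 of the 12 AG peptides there. The block of 2 Ala-Pro pairs and a Ser-Pro seen in the printed paralogs was present in 6 AG peptides (AGP12, AGP13, AGP14, AGP15, AGP20 and AGP21), which had 35.0 to 476 RPKM with a median of 255. The other 6 (AGP16, AGP22, AGP23, AGP24, AGP40 and AGP41) had 0.137 to 621 RPKM with a median of 46.2, so the ranges overlapped. The same block occurred in 2 classical AGPs (AGP5 and AGP7), in the lysine-rich AGP19 and in none of the chimeric AGPs or FLAs.

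Classical AGPs came in at a median of 67.0 RPKM (range 0.0672 to 443). Of the 13 genes 11 (84.6%) were above 1 RPKM, beside 68.4% of protein-coding genes. They held 28.1% of the family's sum, and 8 of them were in the top 10% of the table, beside 12.3% of protein-coding genes. AGP2 led at 443 RPKM, followed by AGP3 at 255 and AGP4 at 236 RPKM. AGP4 is known as JAGGER, which in the ovule is needed to stop further pollen tubes from entering after fertilisation, and here it was among the 10 most abundant members in roots. AGP10 had 127 RPKM, AGP9 had 125, AGP7 had 113 and AGP1 had 67.0 RPKM. The remaining genes above the threshold were AGP25 at 40.6, AGP26 at 14.1, AGP27 at 4.89 and AGP5 at 3.79 RPKM. AGP25, AGP26 and AGP27 had the fewest residue pairs of the class, 8.62, 10.3 and 8.80 per 100 residues. AGP6 and AGP11, a pair needed for pollen development and pollen tube growth, were the lowest of the class at 0.278 RPKM (34 reads, 0.193 to 0.389) and 0.0672 RPKM (6 reads, 0.0248 to 0.147).

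Lysine-rich AGPs were less abundant. AGP18, which is known from female gametophyte development, had 31.4 RPKM, and AGP19, known from cell division and expansion in shoots, had 7.38 RPKM. AGP17 had 1.17 RPKM (173 reads, 1.00 to 1.36) and was the member nearest above the 1 RPKM threshold. Loss of AGP17 expression in roots is known from the rat1 mutant, to which Agrobacterium binds poorly. The 3 genes together held 0.784% of the family's sum although their proteins had residue pairs as dense as those of the classical AGPs.

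Chimeric AGPs were both above the threshold, as were 68.4% of protein-coding genes. AGP31, a protein found in vascular tissue that binds pectin in the wall, had 202 RPKM. AGP30, known from root regeneration and the timing of seed germination, had 18.8 RPKM. Together they held 4.33% of the family's sum.

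FLAs included the 2 genes listed at 0, and the highest FLA was at 302 RPKM. Of the 18 genes 13 (72.2%) were above 1 RPKM, beside 68.4% of protein-coding genes, the median was 11.8 RPKM, and the class held 17.2% of the family's sum. FLA9 had 302 RPKM and was the only FLA in the top 1% of the table, and FLA2 had 199 RPKM. FLA7 at 80.2, FLA8 at 76.4, FLA15 at 49.9, FLA18 at 44.2 and FLA17 at 39.4 RPKM were also in the top 10%. FLA6 at 32.6 RPKM lay just outside it.

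A middle group of FLAs was close to the class median. FLA13 had 12.1 RPKM, FLA12 had 11.4, FLA1 had 9.78, FLA16 had 9.59 and FLA10 had 8.30 RPKM. FLA1 is known from shoot regeneration in culture, and FLA12 from secondary walls of stems, where it contributes to stiffness. The 7 secondary wall genes listed for comparison, among them the cellulose synthases CESA4, CESA7 and CESA8, were all above 1 RPKM, beside 68.4% of protein-coding genes. They ranged from 4.23 (MYB46) to 38.5 RPKM (CTL2), with a median of 12.2 RPKM, beside 4.85 RPKM over protein-coding genes. A link between their levels and that of FLA12 was not tested.

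The other FLAs were at the bottom of the family. FLA5 had 0.491 RPKM (60 reads, 0.376 to 0.634), FLA20 had 0.0331 (5 reads, 0.0106 to 0.0759) and FLA21 had 0.0159 RPKM (2 reads, 0.00193 to 0.0576). FLA3, which is known from pollen development, and FLA14, also known from pollen, were listed at 0. At this depth the floor of 3 reads would have been 0.0213 RPKM for FLA3 and 0.0331 RPKM for FLA14. This floor covers counting error only.

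Both genes at 0 lie opposite another gene. All 768 exon bases of FLA14 (chr3:4019060-4019827, plus strand) overlapped emb2742, a CTP synthase gene on the opposite strand with 28.5 RPKM. For FLA3 (chr2:10392787-10393976, minus strand) 1148 of 1190 exon bases (96.5%) overlapped AT2G24440, with 8.23 RPKM. Of 299 nuclear protein-coding genes with at least 90% of their exon bases opposite a listed gene 63 (21.1%) were at 0, beside 2499 of 20801 such genes (12%) with no such overlap. The use of strand in counting is not given in the sources used here, and the part of this overlap in the 2 zeros was not tested. A further 2 members had a listed gene opposite, over 76.6% of the exon bases of FLA16 (a long noncoding RNA at 0.0764 RPKM) and 20.7% of those of AGP16 (AT2G46320 at 2.47 RPKM). Another 5 members (AGP4, AGP10, AGP19, AGP21 and AGP26) overlapped an annotated gene that was not matched to a listed name.

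Of the 9 members at or under 1 RPKM, 6 (AGP6, AGP11, AGP23, AGP40, FLA3 and FLA14) are known from pollen, the highest being AGP40 at 0.533 RPKM. The others at or under 1 RPKM were FLA5, FLA20 and FLA21. The pollen group was drawn up after the values were seen, from members already at or under 1 RPKM. Its low levels follow from that choice, and a link between pollen expression and level in roots was not tested.

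Neighbours in the order of levels were often not separable even by counting error. For 15 of the 45 neighbouring pairs of genes above 0, the 95% counting interval of their ratio held 1. Among the most abundant genes AGP21, AGP3 and AGP14 (258, 255 and 252 RPKM) formed such a run, with ratios of 1.01 (0.988 to 1.03) and 1.01 (0.993 to 1.03). AGP26 and AGP41 were listed at the same 14.1 RPKM. From AGP6 (0.278 RPKM) down to FLA21 no neighbours could be ordered. The other pairs that could not be ordered were AGP22 with AGP31, AGP10 with AGP9, AGP16 with FLA8, AGP25 with FLA17, FLA6 with AGP18, FLA13 with FLA12, FLA1 with FLA16 and AGP40 with FLA5. For the remaining neighbours the interval did not hold 1, but the spread between the libraries is not known and would add to it.

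Genes of close relatives were listed at different levels. Pairing each member with its closest relative, where at least 50% of residues were identical, gave 14 pairs, and 13 had a ratio. The higher gene exceeded the lower by 1.12-fold to 33.5-fold, with a median of 4.14-fold, by over 2-fold in 9 pairs and by over 10-fold in 3. In 0 pairs did the genes fall on different sides of 1 RPKM.

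The largest gaps were between AGP10 and AGP5, FLA9 and FLA13, and AGP22 and AGP41. AGP10 exceeded AGP5 by 33.5-fold (95% counting interval 30.1 to 37.3) at 55.6% identity. FLA9 exceeded FLA13 by 25-fold (23.8 to 26.2) although 78.5% of their residues were identical. AGP22 exceeded AGP41 by 14.5-fold (13.7 to 15.4) at 58.7% identity. FLA9 was also the closest relative of FLA6 and exceeded it by 9.27-fold (8.97 to 9.58), and FLA8 exceeded FLA10 by 9.20-fold (8.77 to 9.64) at 83.6% identity.

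The closest levels were those of FLA18 with FLA17 and AGP14 with AGP13. FLA18 exceeded FLA17 by 1.12-fold (1.09 to 1.15) and AGP14 exceeded AGP13 by 1.18-fold (1.16 to 1.21). AGP2 exceeded AGP3 by 1.74-fold (1.71 to 1.76) and AGP12 exceeded AGP21 by 1.85-fold (1.81 to 1.89). The most alike proteins, AGP16 and AGP20 at 86.5% identity, differed by 2.23-fold (2.15 to 2.32), so identity alone did not order the gaps. AGP4 exceeded AGP7 by 2.1-fold (2.05 to 2.14) and FLA15 exceeded FLA16 by 5.21-fold (4.96 to 5.46). For AGP6 over AGP11 the ratio of 4.14 had a wide interval (1.74 to 9.85), and FLA5 (0.491 RPKM) had no ratio to FLA3, which was listed at 0.

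Stretches shared exactly between members and other sequences were rare. Of all windows of 61 bases, the read length, only FLA3 had any that were found elsewhere in the genome on either strand, 10 of 1130 (0.885%), and the other 47 members had none. Windows with mismatches were not searched, and the part of reads shared between relatives in these ratios was not tested.

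**Figure D3:**
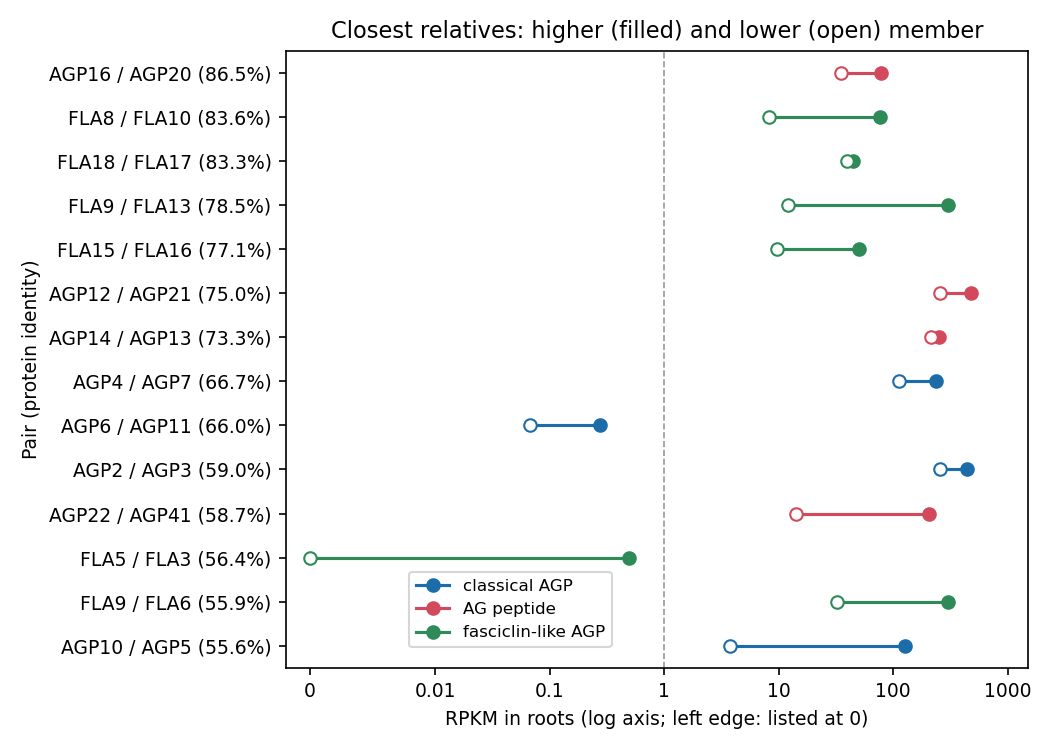
RPKM of the higher (filled) and the lower (open) gene of each of the 14 closest-relative pairs on a log axis, in order of protein identity and coloured by class, with FLA3, listed at 0, at the left edge. AGP10 with AGP5 and FLA9 with FLA13 are the widest apart of the 13 pairs with a ratio, and FLA18 with FLA17 the closest.

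Across the 48 members the level was only weakly ordered by the protein. Spearman's rho with RPKM was -0.37 for protein length, 0.18 for the density of residue pairs and -0.08 for exon length, where rho over 26389 protein-coding genes was 0.25 for exon length. Within the classes the values for the density of pairs were 0.60 over 13 classical AGPs, 0.41 over 12 AG peptides and 0.04 over 18 FLAs. For exon length they were 0.32, 0.18 and 0.45 in the same classes. These coefficients are across genes of the same libraries, and many of the genes are related by descent, so they are given without a test. The 33 members with a single coding exon had a median of 40.6 RPKM, and 24 (72.7%) were above 1 RPKM, beside 68.4% of protein-coding genes. All 15 with 2 coding exons were above 1 RPKM, with a median of 35.0 RPKM. Exon number differed by class: 12 of the 13 classical AGPs had a single coding exon, and no lysine-rich or chimeric AGP did.

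**Figure D4:**
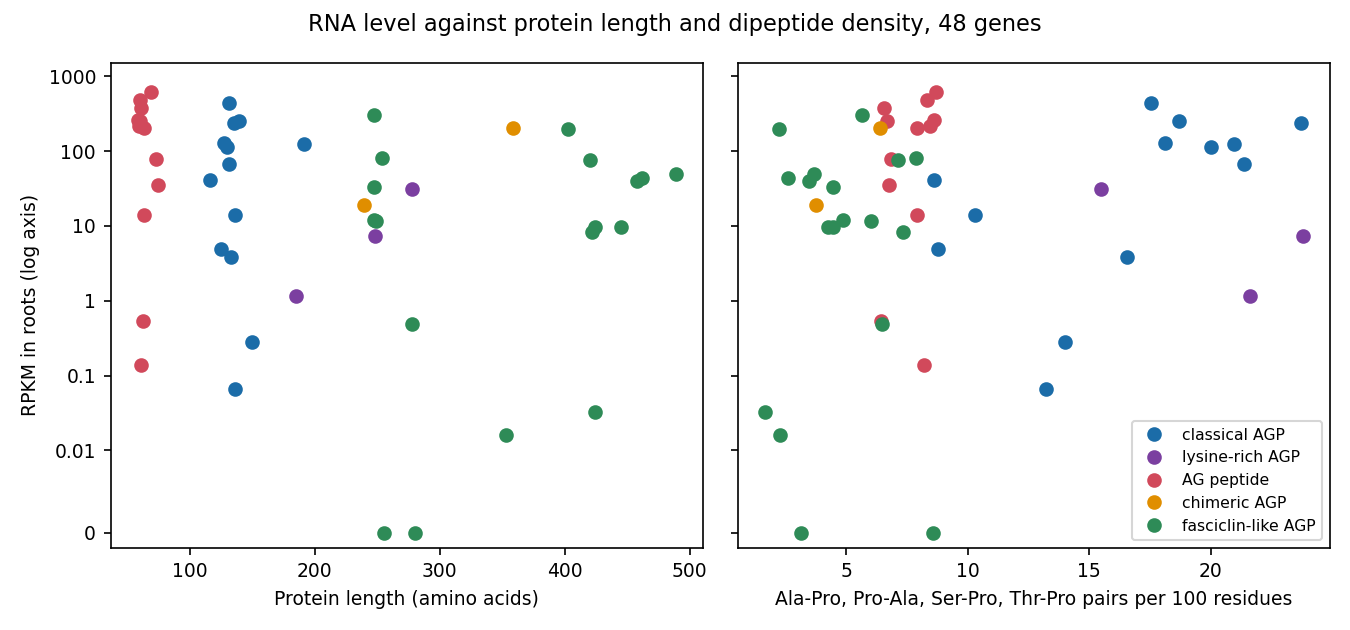
RPKM in roots on a log axis against the length of the annotated protein (left) and against the number of Ala-Pro, Pro-Ala, Ser-Pro and Thr-Pro pairs per 100 residues (right), with 1 point per gene coloured by class and genes listed at 0 on the bottom line. AG peptides of 58 to 74 residues span 0.137 to 621 RPKM.

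Genes of the enzymes that hydroxylate the prolines or build the sugar chains were also mostly expressed in roots, at lower levels than the most abundant backbones. Of 23 genes of hydroxylation and glycosylation 21 (91.3%) were above 1 RPKM, beside 68.4% of protein-coding genes. Their median was 10.7 RPKM, beside 37.2 RPKM for the members and 4.85 RPKM for protein-coding genes. Prolyl 4-hydroxylases, which make the hydroxyproline, included the 2 most abundant of the list, P4H5 at 158 and P4H2 at 118 RPKM, both known from root hair growth. P4H1 had 32.5 RPKM, and P4H13, also known from root hairs, had 0.351 RPKM.

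The galactosyltransferases that add the first sugar to hydroxyproline were all above the threshold, as were 68.4% of protein-coding genes. The 8 genes (GALT2 to GALT6 and HPGT1 to HPGT3) had 1.98 to 14.1 RPKM with a median of 4.91 RPKM, beside 4.85 RPKM over protein-coding genes, lowest for GALT4 and highest for HPGT2. Of 11 genes of later steps 10 (90.9%) were above 1 RPKM, beside the same 68.4% of protein-coding genes. Their median was 11 RPKM, beside 4.85 RPKM over protein-coding genes. AGM1, which methylates glucuronic acid on the chains, was highest of these at 42.4 RPKM. The glucuronosyltransferase GLCAT14A had 29.9 RPKM, and the fucosyltransferases FUT4 and FUT6 had 19.0 and 20.6 RPKM. KNS4, a galactosyltransferase known from the pollen wall, was the exception at 0.403 RPKM.

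**Figure D5:**
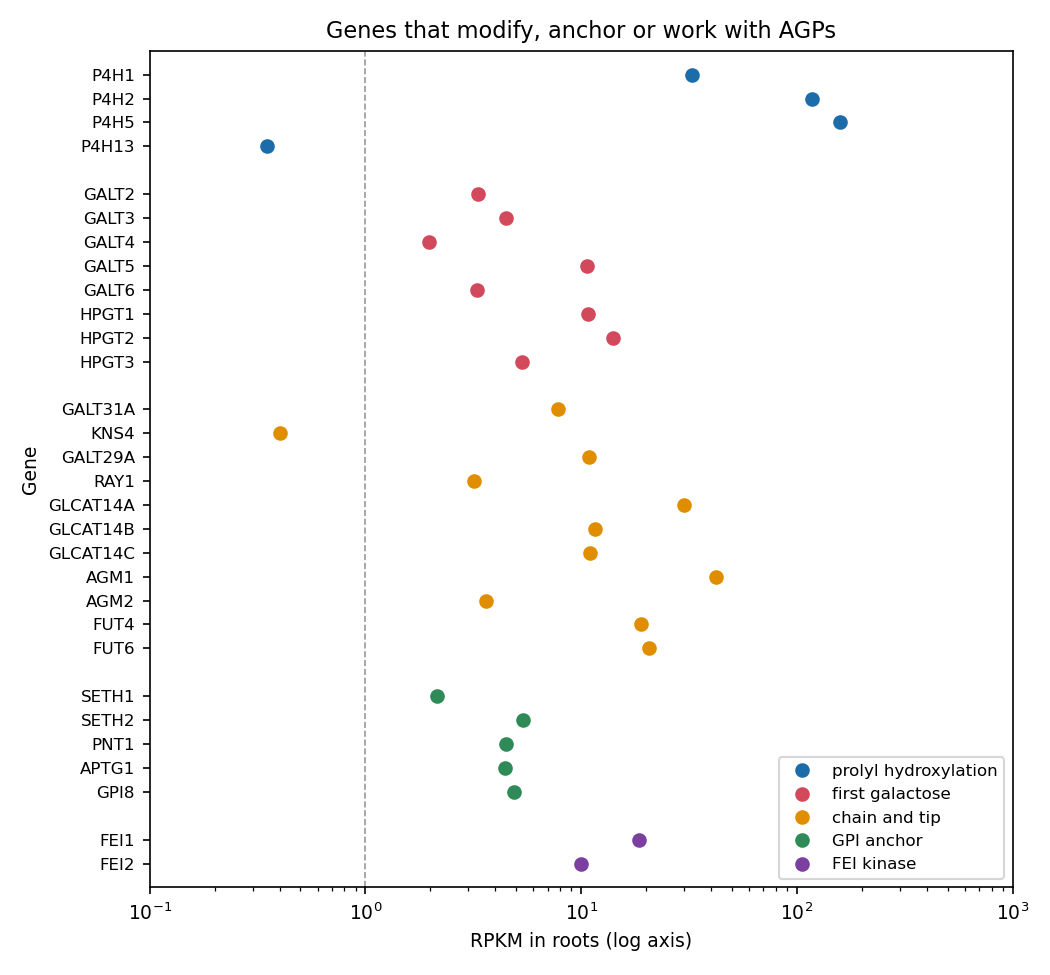
RPKM in roots of the genes of arabinogalactan hydroxylation and glycosylation, GPI anchor synthesis and partner kinases on a log axis, coloured by step, with the dashed line at 1 RPKM. P4H5 and P4H2 stand highest at 158 and 118 RPKM, and P4H13 and KNS4 lie left of the dashed line.

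The GPI anchor genes were measured at even levels. All 5 listed (SETH1, SETH2, PNT1, APTG1 and GPI8) were above 1 RPKM, as were 68.4% of protein-coding genes. They ranged from 2.15 RPKM for SETH1 to 5.40 RPKM for SETH2. Their median of 4.47 RPKM was near the 4.85 RPKM over protein-coding genes. SOS5, a fasciclin-like AGP required for root cell expansion under salt and listed only under that name, had 10.5 RPKM. The receptor kinases FEI1 and FEI2, which act with SOS5 in root growth and cell wall synthesis, had 18.5 and 10.03 RPKM.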

How the data were processed

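RNA of roots was sequenced in 3 libraries of 1 condition. The deposited table holds a single column of RPKM, computed by the authors. The submitters' processing notes name STAR, HTSeq, edgeR and the TAIR10 genome, while the methods of the study name TopHat2 for alignment. Versions, annotation release, use of strand and the way the libraries were combined are not given in the sources used here. The number of columns of no sample was 0.

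Names were matched to TAIR10.1 by locus, symbol or synonym (97.2% of the table). FLAs were taken by product name and lysine-rich AGPs from a fixed list of symbols. The other classes were set from the annotated proteins: AG peptides had at most 100 residues, and AGPs with at most 45% proline, alanine, serine and threonine were called chimeric. Members and gene lists were chosen with earlier results of these data known, and a further name that the rule for members matches is not reported here. All members are accounted for, and of the lists the highest, the lowest and those at or below 1 RPKM were named by rule, further list genes being chosen after their values were seen. The block of 2 Ala-Pro pairs and a Ser-Pro, the pollen group and the check of opposite genes were also chosen after values were seen.

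RPKM is per length, so levels of different genes were compared on that scale. Depth came from low values being multiples of 1 read: 64.9% of 4321 values under 12 reads lay within 0.05 of a whole read, where 10% would by chance. This procedure was tested on simulated data. Intervals are 95% exact Poisson intervals for levels and log-normal intervals for ratios, and they cover counting error only. For a gene listed at 0 the floor was taken as 3 reads. Read numbers rest on TAIR10.1 exon lengths, which may differ from those the authors used, and are estimates.

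Alternatives were thresholds of 0.5 and 2 RPKM, rescaling to TPM, effective length for reads of 61 bp, and leaving out members with repeated windows, unmatched names or genes at 0. Scripts ran under Python 3.11.15 (Biopython 1.88, pandas 2.3.3, numpy 2.4.6, matplotlib 3.10.9 and scipy 1.17.1).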

Additional observations from a re-analysis of the deposited data

How the results depend on the processing

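The share of members above 1 RPKM was 83.3% at 0.5 RPKM and 79.2% at 2 RPKM, and lay between 81.2% and 84.8% under the other alternatives run. The members' median of 37.2 RPKM became 61.1 on the TPM scale, 39.0 with effective length, and 40.0 without the genes at 0 or, in an alternative added after seeing the data, without the 4 members opposite a listed gene. Rescaling to TPM multiplies every value by 1.64, and gave class medians of 110.1 (classical), 12.1 (lysine-rich), 343 (AG peptide), 181 (chimeric) and 19.3 (FLA). With effective length these were 71.6, 8.03, 229.7, 115 and 12.3 RPKM. The other 27 values were unchanged or, for shares, within the 95% binomial interval of the first, the enzyme list at 87.0% above 2 RPKM among them. No paired analysis was possible because the table holds a single column, and no library could be left out for the same reason. Without replicates, differences between genes rest on counting error alone, and genes listed at 0 may have levels near the floor of 3 reads.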

Other observations

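Among the listed genes, 10 are annotated as arabinogalactan or fasciclin-like arabinogalactan family proteins but carry other names, and the name rule left them out. Of these 10, only 4 were above 1 RPKM, beside 39 of the 48 members and 68.4% of protein-coding genes. The 4 were AT4G16980, of the arabinogalactan-protein family, at 13.5 RPKM, SOS5 at 10.5 RPKM, and the fasciclin-like genes AT5G26730 at 4.58 and AT3G55820 at 2.03 RPKM. AT1G15190 lay just under the threshold at 0.968 RPKM (140 reads). AT5G16920 had 0.392, AT4G29980 had 0.174 and AT4G12950 had 0.143 RPKM, and 2 genes (AT1G30800 and AT5G05650) were listed at 0. All 10 lay under the members' median of 37.2 RPKM.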
